A study of Homo sapiens with 21 samples.

Results

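The IRF8 locus was examined by Tri-C, a multi-way chromosome conformation capture assay in which a viewpoint fragment is pulled down and the other fragments ligated to it, the reporters, are read from the same molecule. All deposited files for IRF8 were used: 7 of the 371 files of the series, 4 from an enhancer viewpoint and 3 from a viewpoint at a CTCF-binding site (CBS) of the domain boundary. IRF8 is 1 of 53 loci targeted, of which 51 entered comparisons over loci (36 iMac loci and 15 B cell loci). BLaER1 cells were used, a line from a human B cell leukaemia with an inducible C/EBPα, which convert into macrophage-like cells (iMacs) when 17β-estradiol, IL-3 and CSF-1 are added. Enhancer libraries were made at 0, 24 and 96 h of conversion. The CTCF-depleted library was made at 96 h from a BLaER subclone whose CTCF carries an auxin-inducible degron (CTCF-AID) and that received auxin, and it is set against the 96 h library of the parental BLaER line, here called control 96 h. The boundary CBS libraries cover 0, 24 and 96 h only. In that comparison the subclone, the auxin and the loss of CTCF cannot be told apart.

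IRF8, interferon regulatory factor 8, is a DNA-binding transcription factor of the IRF family that acts largely with partners such as PU.1 on composite ETS-IRF elements. It is used in both B cells and myeloid cells, where it directs progenitors towards monocytes and dendritic cells and away from granulocytes. Enhancers act on promoters over distance in part through looping, and the cohesin complex extrudes loops until it meets CTCF bound in a given orientation, so that convergent CTCF sites often mark both ends of a contact domain.

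In the hg38 annotation, IRF8 (ENSG00000140968) lies on the plus strand of chromosome 16, at chr16:85899116-85922606, and its canonical transcript starts at position 85899162 and has 9 exons. The enhancer viewpoint at position 85853712 is intergenic, 45.5 kb upstream of that start. The boundary CBS viewpoint at position 86016741 is also intergenic, 118 kb downstream of the IRF8 start and 163 kb from the enhancer. The protein-coding genes nearest upstream are EMC8 and COX4I1, whose starts lie 99.6 and 99.5 kb upstream of IRF8, close enough to share a window.

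The enhancer viewpoint fragment is shown because every enhancer contact below is counted from it. It lies between consecutive NlaIII sites (chr16:85853534-85853796, 263 bases, plus strand, hg38). Its capitals mark matches to the C/EBP motif TTNNGNAA, found at 5 positions on either strand, 2 of them overlapping, and 2890 of 7604 263-base windows within 1 Mb hold at least 1 match. The letters of the PU.1 motif (GAGGAAGT), and matches to the interferon-stimulated response element and to an ETS-IRF composite, did not occur in it.
enhancer viewpoint fragment: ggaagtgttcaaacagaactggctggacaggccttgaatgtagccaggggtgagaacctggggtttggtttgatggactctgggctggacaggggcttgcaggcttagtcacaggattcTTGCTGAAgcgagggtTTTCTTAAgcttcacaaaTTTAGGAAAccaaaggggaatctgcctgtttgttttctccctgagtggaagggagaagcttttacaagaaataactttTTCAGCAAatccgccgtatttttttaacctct

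A second set of sequences marks where CTCF could bind on either side of IRF8. The 30 best matches to a 19-position CTCF matrix within 1 Mb of the enhancer were kept, and 4 of them lie between EMC8 and the boundary site. The 3 with the most enhancer counts are printed, chosen after their values were seen, and the fourth is on the plus strand 63.0 kb downstream of the IRF8 start. A pair of matches on the plus strand sits 79.8 and 77.6 kb upstream of the IRF8 start (chr16:85819349-85819367 and chr16:85821560-85821578), and a match on the minus strand sits 88.6 kb downstream (chr16:85987722-85987740), so the pair and the downstream match point towards each other across the gene. The boundary viewpoint's best match within 2 kb, on the minus strand at chr16:86016569-86016587, scored below the 30 kept. Each is written 5′ to 3′ on its own strand, and capitals mark bases that are the matrix's most favoured base.
upstream match 1: TGGaCAgCAGaGGGCGCTc
upstream match 2: TGagCACCAGGtGGCGCTA
downstream match: aaGCCAgCAGGGGGCGCTg
boundary viewpoint match: TGttCACtAGaGGGaGCcA

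From the enhancer, libraries of 0, 24 and 96 h held 52412, 39025 and 32020 counts within 1 Mb of the viewpoint (the total below), and the CTCF-depleted library held 65137. From the boundary CBS the same times held 50447, 56380 and 44273. A count is 1 observation of a pair of reporters with the viewpoint. Distant counts, in which viewpoint and reporters all lay over 10 kb apart, made up 15.8% of the total in the CTCF-depleted library, against 20.8% in control 96 h, and 19.8%, 19.5% and 20.8% at 0, 24 and 96 h of conversion. Neighbouring fragments made up a larger share of all counts in the CTCF-depleted library than the 43.3% of control 96 h. Each deposited file pools 3 replicates, so every test compares 2 pooled libraries and not conditions, and each interval covers counting error only, on counts that are not independent of each other where a read gave several.

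The enhancer met the IRF8 promoter more often by 24 h of conversion and about as often at 96 h. E-P-X, the share of counts with a distant reporter within 6 kb of the IRF8 start and any other distant reporter, was 1.06% at 0 h (95% exact interval 0.975 to 1.15), 1.48% at 24 h (1.36 to 1.61) and 1.58% at 96 h (1.44 to 1.72). The intervals at 24 and 96 h lie above that at 0 h and overlap each other. The log2 ratio (an odds ratio against the rest of the total) was 0.49 at 24 h and 0.58 at 96 h against 0 h, with adjusted p of 3.11e-08 and 1.09e-10 by the exact conditional binomial test with adjustment over loci. Both were called as rises, which needs an adjusted p under 0.05 and a log2 ratio past 0.32 in size. Both ratios use the same 0 h library, as do all pairs of ratios at 24 and 96 h below. At these times 43.1% and 66.7% of all loci were called as rises, so a rise at 96 h is what most loci showed, and IRF8 stood at rank 16 of 51 from the top at 24 h and at rank 28 of 51 at 96 h. Among the 36 iMac loci alone it ranked 28 at 96 h and so stood below their median.

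The share with the boundary site was called as a rise at 96 h only. E-C-X, the share of counts with a distant reporter within 6 kb of the boundary CBS, was 1.08% at 0 h, 1.10% at 24 h and 1.49% at 96 h. The ratio was 0.03 at 24 h (95% interval -0.16 to 0.21, adjusted p = 0.904, exact conditional binomial test), not called, where 31.4% of loci were called as rises, and 0.47 at 96 h (adjusted p = 5.22e-07, same exact test), called as a rise as at 54.9% of loci. The 24 h value is close to 0 and changed sign with the settings, to -0.17 with a window of 30 kb. The 96 h rise was 0.22 and not called with that window, where it missed the fold. Counts that joined enhancer, promoter and boundary site (E-P-C) numbered 9, 9 and 11 at 0, 24 and 96 h. Those at 24 h and 0 h were too few to be compared, and the 96 h ratio of 0.99 had an interval of -0.41 to 2.45 and was not called, where 53.3% of 30 loci were called as rises.

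In the CTCF-depleted library both contacts were lower. E-P-X was 0.866% (0.796 to 0.94) in CTCF-depleted cells and 1.58% (1.44 to 1.72) in control 96 h cells, a log2 ratio of -0.88 (adjusted p = 1.95e-22, exact conditional binomial test), called as a fall as at 90.2% of loci. E-C-X was 0.823% in CTCF-depleted cells and 1.49% in control 96 h cells, a ratio of -0.86 (adjusted p = 1.09e-20, same exact test), called as a fall as at 88.2% of loci. E-P-C numbered 20 counts in CTCF-depleted cells and 11 in control 96 h cells, and the ratio of -0.19 had an interval of -1.29 to 1.05 and was not called, where 70% of 30 loci were called as falls. The lower share of distant counts in the CTCF-depleted library enters each of these ratios: set against distant counts alone, E-P-X fell by 0.50 and E-C-X by 0.49 on the log2 scale, and both were still called. The 90.2% and 88.2% of loci apply to the scale of the total only. The share of loci called relative to distant counts is not given here, so IRF8 cannot be placed among loci on that scale.

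**Figure D1:**
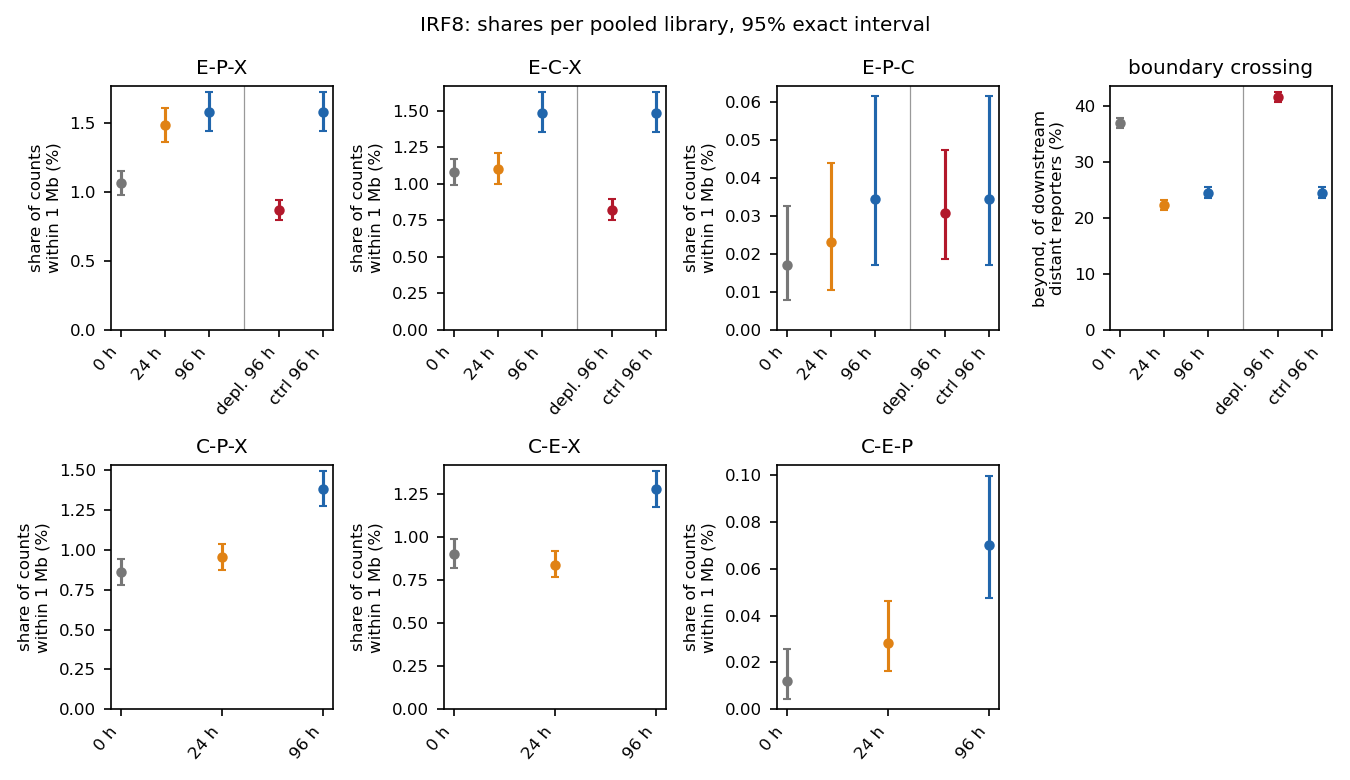
Shares of the locus total (y axes, %) for each IRF8 measure in each pooled library, with 95% exact intervals; boundary crossing is a share of the distant reporters on the boundary's side. E-P-X was 1.06%, 1.48% and 1.58% at 0, 24 and 96 h, and 0.866% in the CTCF-depleted library beside 1.58% in control 96 h, which is the 96 h library drawn again.

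A smaller share of downstream reporters lay beyond the boundary site at 24 and 96 h than at 0 h. Of the distant reporters downstream of the enhancer, 36.9% at 0 h, 22.2% at 24 h and 24.5% at 96 h lay past the site, with 12 kb around it left out. The share was lowest at 24 h. As a share, it also falls when more reporters lie short of the site. Reporters were counted singly, so the 2 of a pair could both enter. They are not independent, which makes the p-values below too small. The ratio was -1.03 at 24 h and -0.85 at 96 h against 0 h (adjusted p = 9.23e-169 and 3.18e-112, exact conditional binomial test), called as falls as at 27.5% and 56.9% of loci. IRF8 ranked 49 of 51 from the top at 24 h, so only 2 loci had a larger fall, while the median over all loci was -0.03. At 96 h it ranked 38 of 51, with a median of -0.42. In CTCF-depleted cells 41.6% lay past the site, against 24.5% in control 96 h cells, a ratio of 1.14 (adjusted p = 3.78e-216, exact conditional binomial test), called as a rise as at 82.4% of loci and above the median of 0.70.

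Split by annotation, a larger share of the distant reporters of the enhancer lay between EMC8 and the boundary site, in each of 4 stretches, at 24 and 96 h than at 0 h. The share on the gene itself, from its start to its end, was 5.73% at 0 h, 8.89% at 24 h and 7.83% at 96 h. The share between the gene's end and the boundary site was 19.4%, 26.0% and 24.1%. Between EMC8 and the enhancer it was 16.7%, 19.2% and 20.4%. Upstream of EMC8 it was 22.3%, 17.3% and 15.7%, and beyond the boundary site 22.7%, 14.6% and 16.4%. The stretch between the enhancer and the promoter differed least at 24 h, with 13.2%, 13.9% and 15.7%. In CTCF-depleted cells the share between enhancer and promoter was 11.2%, against 15.7% in control 96 h cells, and the share past the boundary was 26.9% against 16.4%. Between EMC8 and the enhancer it was 17.1% in CTCF-depleted cells and 20.4% in control 96 h cells, and between the gene's end and the boundary 19.2% and 24.1%. The share on the IRF8 gene was 7.56% in CTCF-depleted cells and 7.83% in control 96 h cells, with overlapping intervals. In these shares too, both reporters of each pair were counted.

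Tiled in 10 kb bins, the change at 24 h was one of few rises and many falls. Of 184 bins with at least 20 counts, 11 rose (5.98%) and 53 fell (28.8%) from the enhancer at 24 h, and of 181 bins at 96 h, 12 rose (6.63%) and 28 fell (15.5%). Of the 16 bins between the enhancer and the boundary site, 8 rose at 24 h and 11 at 96 h, and 0 fell at either time. Of the bins beyond the boundary site 0 rose at either time, while 33 of 77 fell at 24 h and 17 of 76 at 96 h. The median bin had a ratio of -0.47 at 24 h and -0.38 at 96 h. All 4 bins on the gene rose at both times.

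The bin that holds the end of IRF8, centred 25.8 kb downstream of the start, had 347 counts (0.662% of the total) at 0 h and 477 counts (1.22%) at 24 h, a ratio of 0.89 and, of the rises with over 100 counts, the highest at 24 h. The bin centred 85.8 kb downstream, which holds the downstream CTCF match printed above, had 565 counts (1.08%) at 0 h, 734 (1.88%) at 24 h and 593 (1.85%) at 96 h, with ratios of 0.81 and 0.79. The bin centred 74.2 kb upstream, with upstream match 2, had 841 counts (1.60%), 924 (2.37%) and 967 (3.02%) at 0, 24 and 96 h, with ratios of 0.57 and 0.93. It was the largest rise at 96 h, ahead of the bin 85.8 kb downstream and of the bin just upstream of and across the IRF8 start (0.78). The boundary bin, centred 116 kb downstream, had 538 counts (1.03%) at 0 h, 389 (0.997%) at 24 h and 449 (1.40%) at 96 h, called only at 96 h. The named rises with the largest ratios at 24 h lay far upstream in GSE1, centred 594 and 374 kb from the IRF8 start, on 44 and 60 counts at 24 h against 28 and 41 at 0 h.

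The largest falls were far beyond the boundary and rested on few counts. At 24 h they were the bins centred 906, 776 and 876 kb downstream of the IRF8 start, with 2, 3 and 4 counts at 24 h against 32, 35 and 40 at 0 h. At 96 h they were the bins 906 and 886 kb downstream, with 2 counts each at 96 h against 32 and 22 at 0 h, and a bin in GSE1 514 kb upstream with 9 counts at 96 h against 75 at 0 h.

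In the CTCF-depleted library bins between enhancer and boundary fell. Of 185 bins, 20 rose (10.8%) and 23 fell (12.4%), and when bins were set against distant counts 52 rose and 10 fell, since that scale raises the median bin by 0.40. Between the enhancer and the boundary site 14 of 16 bins fell and 0 rose, and beyond it 20 of 79 rose and 2 fell. Set against distant counts, 8 of the 16 fell and 0 rose, and 44 of the 79 rose and 1 fell. On that scale 1 of the 4 bins on the gene fell, against 3 on the scale of the total. The largest fall was in the bin at the IRF8 start, with 427 counts (0.656%) in CTCF-depleted cells and 523 (1.63%) in control 96 h cells, a ratio of -1.33. It was followed by the bin 85.8 kb downstream, with 498 (0.765%) and 593 (1.85%) in CTCF-depleted and control 96 h cells, a ratio of -1.29, and by a bin in GSE1 294 kb upstream with 21 and 24 counts. The largest rises were at 906, 816 and 856 kb downstream, with 38, 47 and 36 counts in CTCF-depleted cells against 2, 3 and 3 in control 96 h cells.

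**Figure D2:**
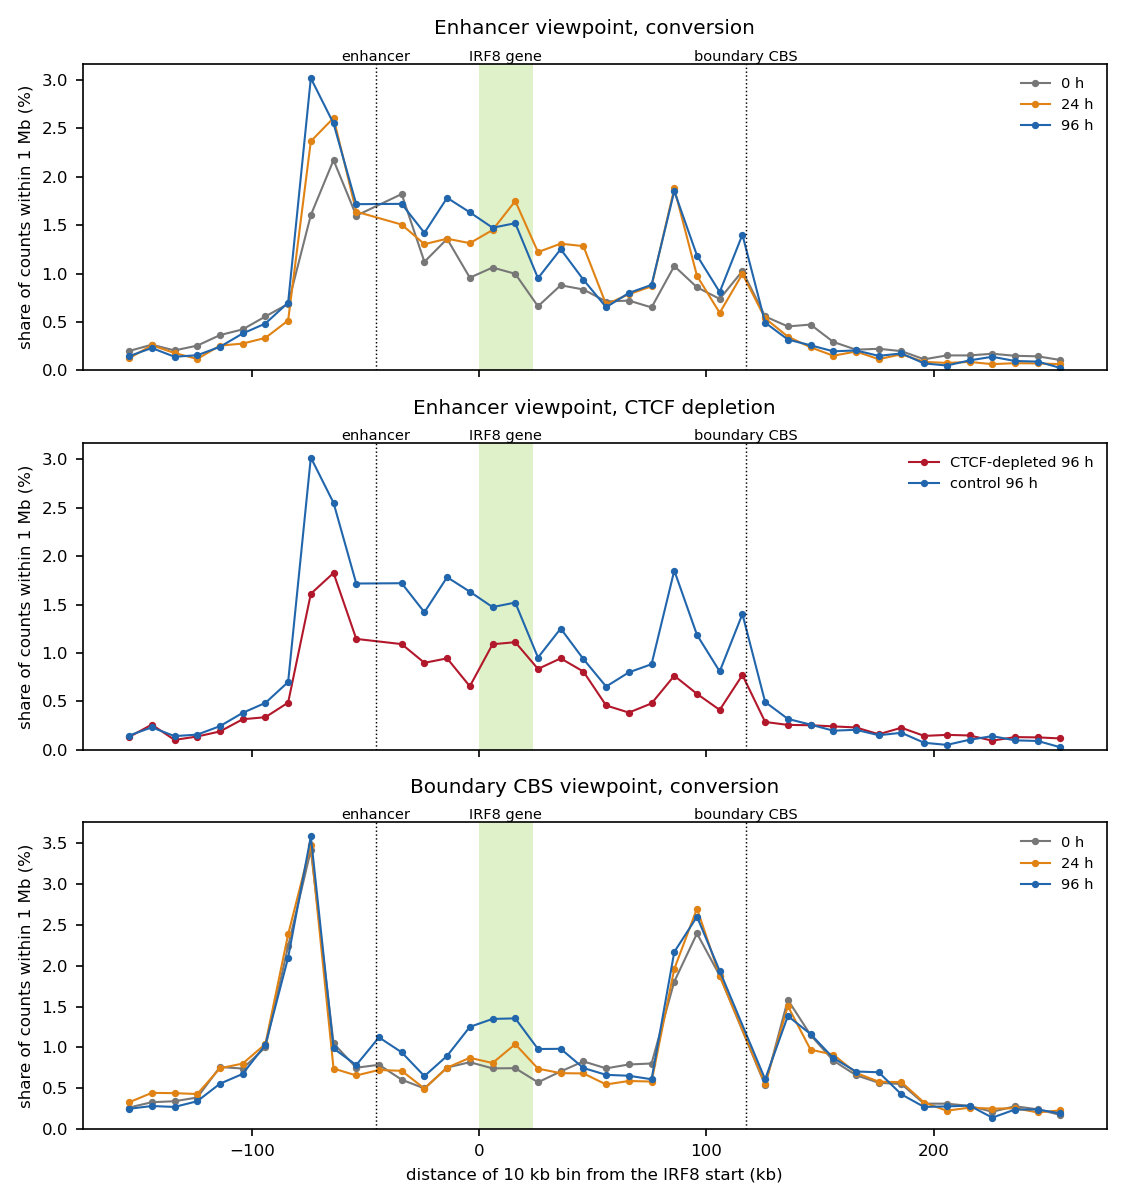
Share of the locus total (y axes, %) in 10 kb bins by distance from the IRF8 start (x axis, kb), from the enhancer over conversion, from the enhancer with and without CTCF depletion, and from the boundary CBS over conversion. Lines only join bins, and bins at the viewpoint are left out; the bin 85.8 kb downstream held 1.08%, 1.88% and 1.85% at 0, 24 and 96 h from the enhancer.

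Over 15 steps of 5 kb, from 30 kb upstream to 45 kb downstream, depletion ratios were lower on the upstream side of the IRF8 start. In 5 kb steps from the start, the step just upstream had 176 counts in CTCF-depleted cells and 251 in control 96 h cells, a ratio of -1.54 (-1.83 to -1.26), while the first 5 kb of the gene had 333 and 202 counts, a ratio of -0.31 (-0.56 to -0.05). The intervals do not overlap, and the step just upstream had the lowest ratio of the 15. The steps further upstream had ratios from -1.13 to -0.77, and those further downstream from -0.70 to -0.03. Every upstream step also lies nearer to the enhancer viewpoint than every downstream step, and a part of distance in these ratios was not tested. Relative to distant counts the values of the 2 steps at the start were -1.17 and 0.09, so the direction in the first 5 kb of the gene depends on the scale. A CTCF match below the 30 kept lies in the upstream step, 1.58 kb before the start. It is a weak match, since 74 positions of the locus scored at least as high. Whether CTCF binds there, and any link to the ratio, was not tested. During conversion the intervals of the 2 steps at the start overlapped, with ratios of 0.40 upstream and 0.65 downstream at 24 h and 0.73 and 0.55 at 96 h.

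**Figure D3:**
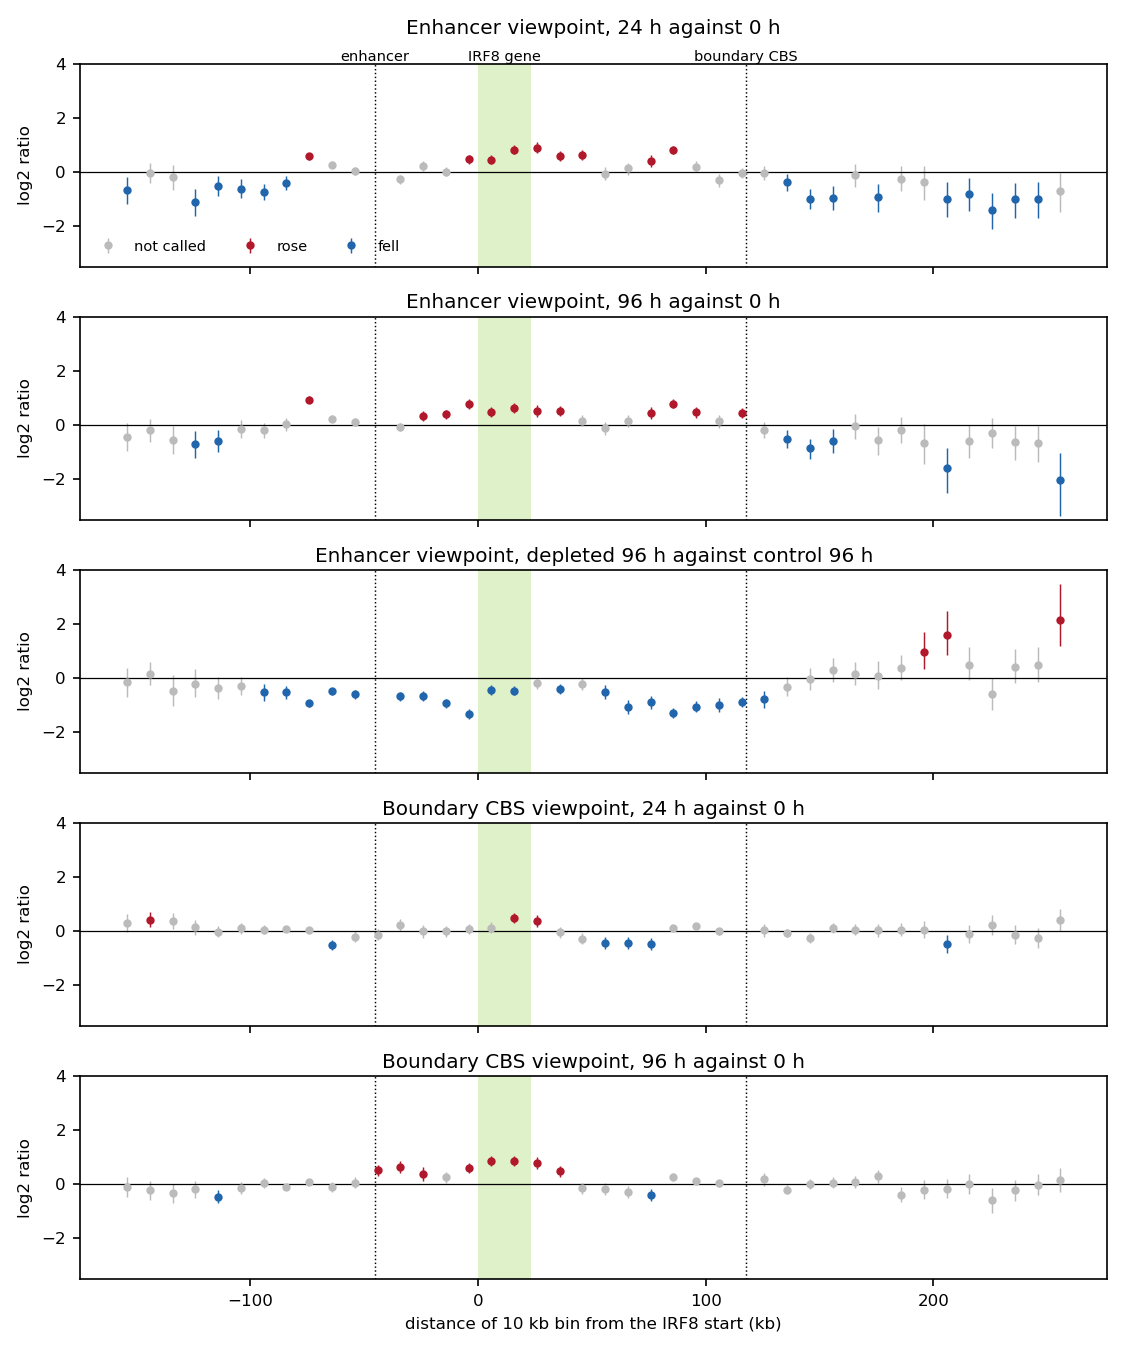
Log2 ratio of each 10 kb bin (y axes) by distance from the IRF8 start (x axis, kb) in the 5 comparisons, with 95% counting intervals and calls in colour. From the enhancer, 8 of 16 bins between enhancer and boundary rose at 24 h and 11 at 96 h, and in CTCF-depleted cells 14 of these 16 fell, or 8 relative to distant counts, with -1.33 (-0.98 relative to distant counts) at the IRF8 start.

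From the boundary CBS, contacts with promoter and enhancer were called as rises at 96 h and not at 24 h. C-P-X, its share of counts with the IRF8 promoter, was 0.858% at 0 h, 0.954% at 24 h and 1.38% at 96 h. The ratio was 0.15 at 24 h (-0.03 to 0.34), not called, where 33.3% of loci were called as rises, and 0.69 at 96 h (adjusted p = 4.12e-14, exact conditional binomial test), called as a rise as at 58.3% of 48 loci. C-E-X, its share with the enhancer, was 0.902%, 0.839% and 1.28%, with a ratio of -0.11 at 24 h (-0.29 to 0.08), not called, where 9.8% of loci were called as falls, and 0.51 at 96 h (adjusted p = 6.91e-08, same exact test), called as a rise as at 49% of loci. From either viewpoint, the enhancer and boundary pair had no call at 24 h and a called rise at 96 h.

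Counts that joined the boundary site, the enhancer and the promoter (C-E-P) numbered 6 at 0 h, 16 at 24 h and 31 at 96 h. The 24 h ratio of 1.18 had an interval of -0.17 to 2.90 and was not called, where 18.2% of 22 loci were called as rises. The 96 h ratio of 2.47 (1.28 to 4.11, adjusted p = 4.74e-05, exact conditional binomial test) was called as a rise as at 48.1% of 27 loci with enough counts, and ranked 4 of 27 from the top. It rests on few counts, and with a window of 30 kb the ratio was 1.35 and still called. The same triple seen from the enhancer (E-P-C) was not called at 96 h, at 0.99 (-0.41 to 2.45).

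From the boundary CBS, 8 of the 11 bins that rose at 96 h lay between the enhancer and the boundary, while 18 of the 26 that rose at 24 h lay upstream of the enhancer. At 96 h 11 of 195 bins rose (5.64%) and 5 fell (2.56%), and at 24 h 26 of 197 rose (13.2%) and 6 fell (3.05%). With all counts divided by 3, 0 of the bins were called at 24 h (6 at 96 h) by the same exact test. On the scale of distant counts these splits were 10 and 11 at 96 h and 17 and 10 at 24 h. All 4 bins on the IRF8 gene rose at 96 h, when the bin centred 15.8 kb into the gene had 600 counts (1.36%), against 376 (0.745%) at 0 h, a ratio of 0.87, and the bin centred 5.84 kb into it had 597 against 375. The third named rise at 96 h lay 776 kb downstream, on 26 counts at 96 h and 8 at 0 h. The highest bin, 74.2 kb upstream with upstream match 2, had 1723 counts (3.42%), 1962 (3.48%) and 1586 (3.58%) at 0, 24 and 96 h, not called at either time. At 24 h the named rises were in GSE1, 334, 274 and 314 kb upstream, with 44, 115 and 59 counts at 24 h against 11, 37 and 24 at 0 h. The named falls were the bins 64.2 kb upstream (-0.50), 75.8 kb downstream (-0.47) and 1036 kb downstream (-1.14) at 24 h, and 814, 834 and 654 kb upstream, on 3, 2 and 29 counts at 96 h against 27, 18 and 68 at 0 h.

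Single pairs of bins showed which places met on the same molecule. Each pair was picked for its count in 1 of the libraries it is then compared in, so its ratios lean towards that library and are given as a description. At 24 and 96 h the pair most often seen with the enhancer joined the bins 74.2 kb upstream and 85.8 kb downstream, those of upstream match 2 and the downstream match, with 36, 90 and 68 counts at 0, 24 and 96 h. Per 100000 counts these were 68.7, 230.6 and 212, with ratios of 1.74 (1.18 to 2.35) and 1.62 (1.03 to 2.26). The pair had 67.5 per 100000 counts in CTCF-depleted cells and 212 in control 96 h cells, a ratio of -1.65 (-2.24 to -1.09). The same upstream bin with the boundary bin had 63.0, 138 and 203 per 100000 at 0, 24 and 96 h, and 72.2 in CTCF-depleted cells against 203 in control 96 h cells. Other leading pairs, without a printed match in 1 or both bins, changed in the same directions. The bins 64.2 kb upstream and 85.8 kb downstream had 63.0, 195 and 159, and 75.2 in CTCF-depleted cells. The bins 64.2 kb upstream and 15.8 kb downstream had 82.0, 184 and 162, and 86.0 in CTCF-depleted cells. The bins 74.2 and 54.2 kb upstream had 68.7, 115 and 206, and 111 in CTCF-depleted cells. At 0 h the leading pairs instead joined the bin 64.2 kb upstream with bins 34.2, 14.2 and 24.2 kb upstream of IRF8, at 86, 71 and 59 counts, and their 24 h intervals include 0. In CTCF-depleted against control 96 h cells these pairs too had ratios below 0, of -0.96 (-1.49 to -0.42), -0.78 (-1.33 to -0.23) and -0.65 (-1.27 to -0.01). All depletion ratios of pairs here are against the total, and the scale of distant counts would raise each by about 0.40. The intervals around -0.78 and -0.65 would then include 0. From the boundary CBS the pair of bins 74.2 kb upstream and 85.8 kb downstream was already among the highest at 0 h. It had 230, 252 and 221 per 100000 at 0, 24 and 96 h, and both intervals of its ratios include 0. The same upstream bin with the bin 95.8 kb downstream, which holds no printed match, had 202, 294 and 239. That pair was the highest at 24 and 96 h, and its 24 h ratio was 0.54 (0.18 to 0.91). With the bin 106 kb downstream the upstream bin had 163, 145 and 163. These downstream bins lie close to the boundary viewpoint.

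**Figure D4:**
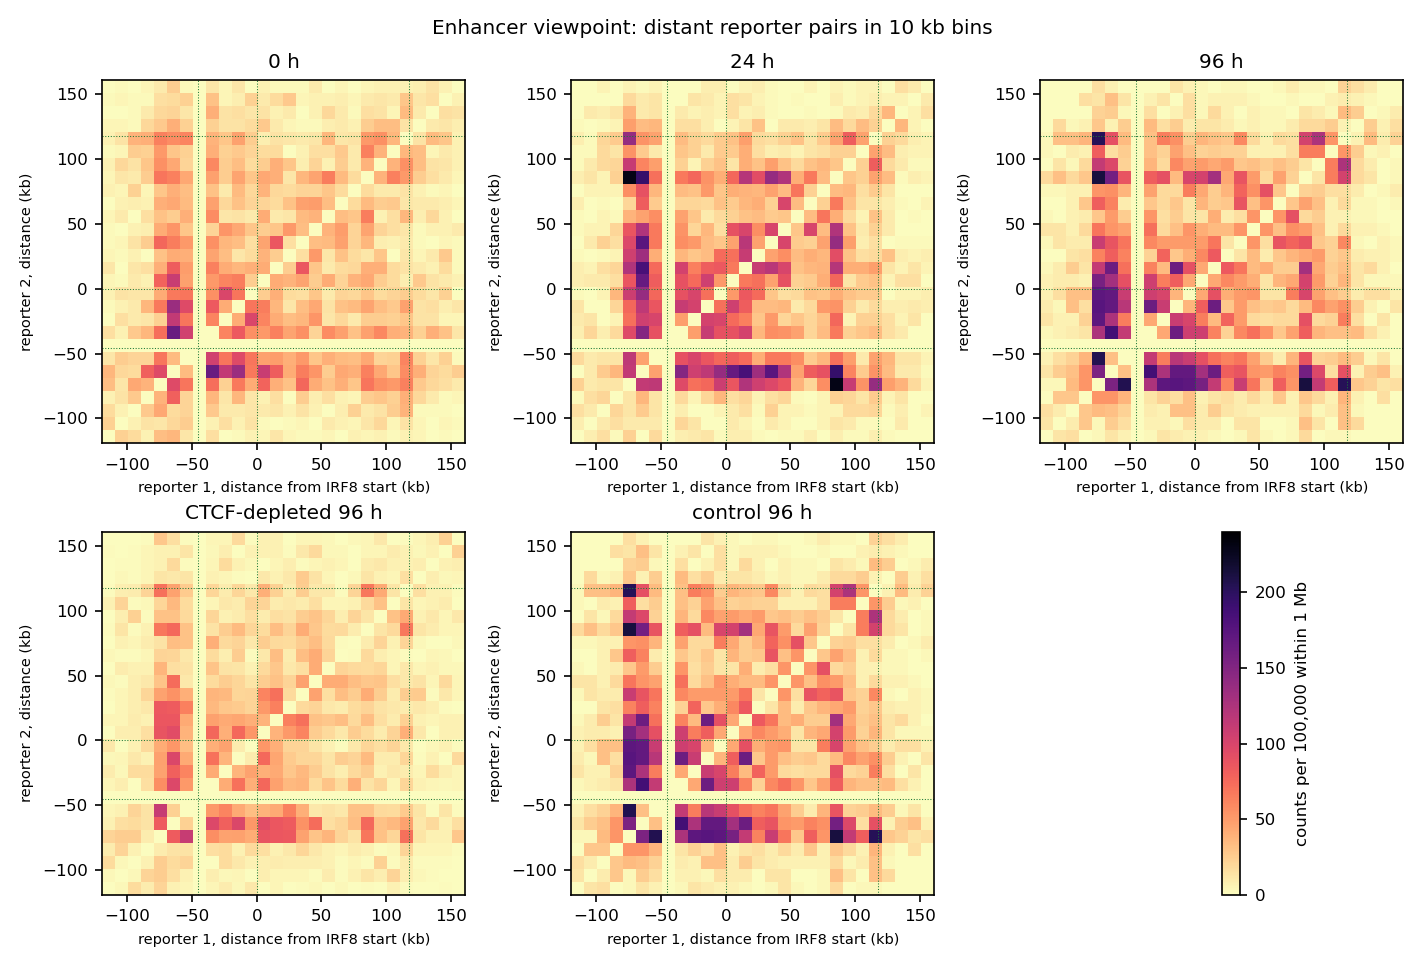
Pairs of distant reporters captured with the enhancer, in 10 kb bins, by distance of each reporter from the IRF8 start (both axes, kb); colour gives counts per 100000 within 1 Mb, and dotted lines mark enhancer, start and boundary CBS. The pair 74.2 kb upstream with 85.8 kb downstream had 68.7, 230.6 and 212 at 0, 24 and 96 h, and the map of CTCF-depleted cells (67.5 at that pair) is beside that of control 96 h, the 96 h library drawn again.

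At the CTCF matches themselves, in windows of 2 kb to each side, the enhancer had 319, 364 and 338 counts at the downstream match at 0, 24 and 96 h, ratios of 0.62 and 0.80, and 212 counts in CTCF-depleted cells against 338 in control 96 h cells, a ratio of -1.71 (-1.96 to -1.46). Set against distant counts that depletion ratio was -1.35 (-1.60 to -1.10). The depletion ratios of the other matches are given against the total only, and the scale of distant counts raises them as well. Upstream match 2 had 285, 265 and 324 counts at 0, 24 and 96 h, ratios of 0.32 and 0.90, and -1.08 in CTCF-depleted against control 96 h cells. Upstream match 1 had 190, 142 and 184 counts, ratios of 0.01 (-0.32 to 0.33) and 0.67 (0.37 to 0.97), and -0.75 in CTCF-depleted against control 96 h cells. The match 63.0 kb downstream had 162, 111 and 98 counts at 0, 24 and 96 h, ratios of -0.12 (-0.48 to 0.24) and -0.01 (-0.39 to 0.36), and -1.04 in CTCF-depleted against control 96 h cells. A match on the plus strand beyond the boundary, 145 kb downstream, had 115, 30 and 28 counts at 0, 24 and 96 h, ratios of -1.50 and -1.31. Over the matches with at least 20 counts the median ratio was -0.06 in CTCF-depleted against control 96 h cells, as over all windows of that width. From the boundary CBS upstream match 2 had 904, 1135 and 873 counts at 0, 24 and 96 h, and 7 matches within 200 kb had a median of 231 counts at 0 h against 126.5 for all windows. From the enhancer the 8 matches within 200 kb had medians of 138.5, 76 and 64 counts at 0, 24 and 96 h, where all windows had 119.5, 70 and 69.5, and 92.5 against 94.5 in the CTCF-depleted library. For neither viewpoint were the windows matched to the matches for distance from it, and a part of distance in these medians was not tested.

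Gene starts other than that of IRF8 followed the bins around them. Those with a larger share of enhancer counts during conversion lay between the enhancer and the boundary site. Of 24 other starts within 500 kb (5 protein-coding and 19 long non-coding, several sharing a window), 4 had a counting interval above 0 and 9 below it at 24 h, and 5 and 6 at 96 h. Of all 4 kb windows within 1 Mb with at least 20 counts, 30 of 327 lay above 0 and 80 below it at 24 h. At 96 h these were 37 and 57 of 309. The starts are thus described and not set apart from other sequence of the locus. EMC8, a subunit of the ER membrane protein complex, and COX4I1, a subunit of cytochrome c oxidase, lie together: the EMC8 window had 329, 147 and 171 counts at 0, 24 and 96 h, ratios of -0.74 (-1.03 to -0.46) and -0.23 (-0.51 to 0.04). The COX4I1 window had 330, 144 and 170. GINS2, a subunit of the GINS replication complex, had 99, 56 and 38 counts at 0, 24 and 96 h, with ratios of -0.39 (-0.90 to 0.09) and -0.66 (-1.25 to -0.12). C16orf74 had 108, 91 and 68 counts and GSE1 had 51, 37 and 29, and the intervals of both include 0 at either time. ENSG00000285163, a lncRNA that starts 25.8 kb downstream of the IRF8 start, had 483, 605 and 400 counts at 0, 24 and 96 h (0.76 and 0.44), and LINC02132, 37.1 kb downstream, had 550, 615 and 438 (0.59 and 0.39). The lncRNA ENSG00000285040, 86.2 kb downstream and near the downstream CTCF match, had 677, 865 and 755 counts (0.79 and 0.88).

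In CTCF-depleted against control 96 h cells 3 of these 24 starts had an interval above 0 and 10 below it, or 3 and 3 relative to distant counts. Of all 310 such 4 kb windows, 42 lay above 0 and 70 below it against the total. ENSG00000285040 had 594 counts in CTCF-depleted cells and 755 in control 96 h cells, a ratio of -1.39, or -1.06 relative to distant counts. The EMC8 window had 262 and 171 counts, a ratio of -0.41, or -0.02 relative to distant counts. Past the boundary, ENSG00000268078, 260 kb downstream, had 95 counts in CTCF-depleted cells and 21 in control 96 h cells, a ratio of 1.13 (0.46 to 1.91). LINC01081, 402 kb downstream, had 122 and 28 counts, a ratio of 1.08 (0.50 to 1.75).

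Among the 12 other myeloid transcription regulators of the series, E-P-X at 24 h ranged from 0.08 to 1.44 with a median of 0.78, above the 0.49 of IRF8, and at 96 h from 0.60 to 1.88 with a median of 1.42, so the 0.58 of IRF8 (0.40 to 0.76) was below all 12 values, though its interval reaches the lowest; these differences were not tested. CEBPA, the gene of the factor that drives conversion, was the lowest of the 12 at both times. C-P-X at 96 h had a median of 0.88 over 10 of them, against 0.69 at IRF8. In CTCF-depleted against control 96 h cells their E-P-X ranged from -1.69 to -0.44, on either side of the -0.88 of IRF8. Over 10 ratios (E-P-X and E-C-X in 3 comparisons, C-P-X and C-E-X in 2), the loci nearest to IRF8 among the 47 compared were TNFSF10 (Euclidean distance 0.664), CEBPA (0.696) and IL10RA (0.725), where the median distance was 1.81 and the farthest 3.35.

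**Figure D5:**
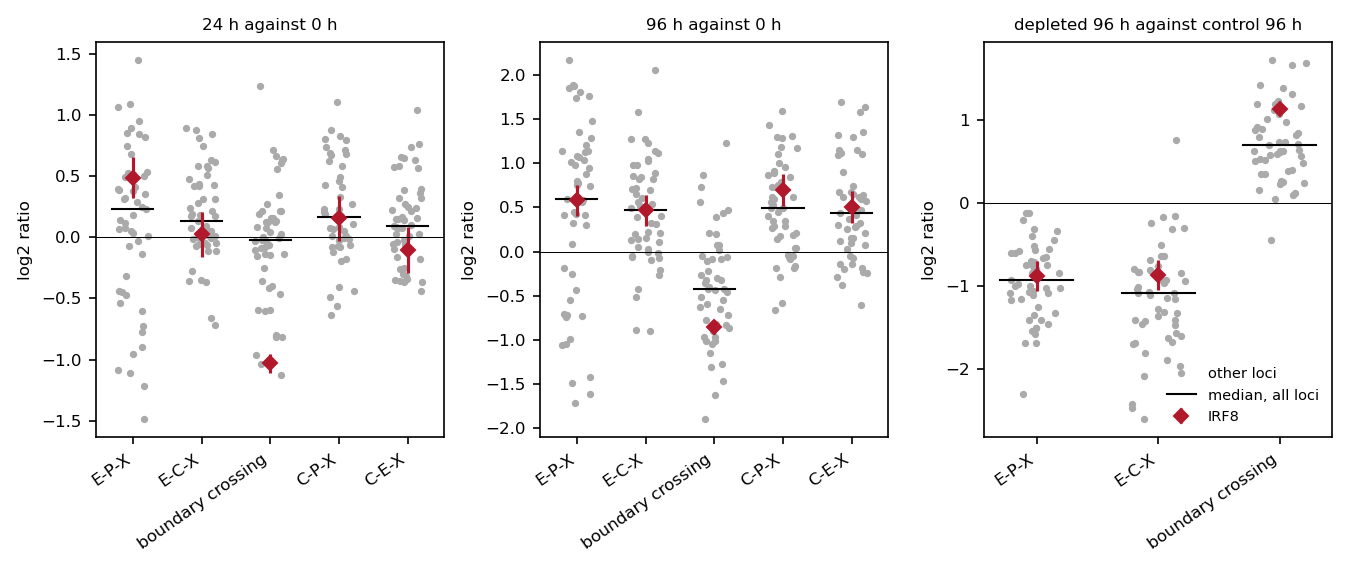
Log2 ratios (y axes) of IRF8 with its 95% counting interval, the other loci and the median over all loci, for each measure in the 3 comparisons. IRF8 lies close to the median of all loci for E-P-X at 96 h (0.58 against 0.60), though it ranks 28 of 36 among iMac loci, and far below it for boundary crossing at 24 h (-1.03 against -0.03).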

How the data were processed

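Tri-C was run by the authors on BLaER1 cells with NlaIII digestion and capture of each viewpoint. Per the labels, reads were mapped to hg38; the authors used CapCruncher, pooled 3 biological replicates per group and wrote, in each deposited file, a count per pair of reporter fragments. Every pair of a read was counted, so counts are not independent. All IRF8 fragments lay between NlaIII sites of the hg38 reference. Each viewpoint's position was taken as the middle of the stretch without reporters that had the most counts at its edges. Gene starts came from GENCODE 44. Windows spanned 12 kb, the total was counts within 1 Mb, and a pseudo-count of 0.5 was added. Tests were exact conditional binomial tests, two-sided, with Benjamini-Hochberg adjustment over 51 loci (2 of 53 were left out, as in the study) or over bins with at least 20 counts in both libraries together. Shares have Clopper-Pearson intervals. The named genes were IRF8, the protein-coding starts within 500 kb, lncRNA starts there with at least 20 counts in every enhancer library, and the 3 loci with the smallest distance; named bins were the 3 largest called rises and falls, others being described for their annotation after their values were seen. The members, lists, motifs and tests were chosen with earlier results of these data known. Scripts were tested on simulated data and ran in Python 3.11.15 with SciPy 1.17.1, pandas 2.3.3, NumPy 2.4.6 and matplotlib 3.10.9.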

Additional observations from a re-analysis of the deposited data

Results flagged for a closer look

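Counts with a reporter beyond 1 Mb of the viewpoint, left out of the total except in the alternative set against the whole chromosome, made up 26.1% of counts in the CTCF-depleted library and 24.7% in control 96 h, and 17.5% at 96 h against 16.3% at 0 h from the boundary CBS; each exact interval lay above that of its control. Distant reporters of the boundary CBS upstream of EMC8 moved in opposite directions at the 2 times, with a log2 ratio of 0.35 at 24 h and of -0.27 at 96 h against 0 h, and this difference was not tested. Both times share the 0 h library.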

How the results depend on the processing

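Of 207 values recomputed over 22 results, 188 kept their direction and their side of the threshold (or, for counts of bins, stayed within 1.5 times). E-P-X kept its calls throughout, at 0.39 to 0.54 at 24 h, 0.51 to 0.64 at 96 h and -1.01 to -0.50 in CTCF-depleted against control 96 h cells, as did boundary crossing at -1.07 to -0.99, -0.85 to -0.78 and 1.09 to 1.14. E-C-X at 24 h changed sign with distant beyond 5 kb (-0.063), each fragment pair counted once (-0.12), neighbouring fragments left out (-0.069) and a window of 30 kb (-0.17), C-E-X at 24 h with distant beyond 20 kb (0.063), and E-P-C in CTCF-depleted cells relative to distant counts (0.21) and without neighbouring fragments (0.10); none of these was called. With a window of 30 kb E-C-X at 96 h was 0.22 and no longer called, while C-E-P at 24 h (0.55) and E-P-C in CTCF-depleted cells (-0.66) were called. The causes were not tested. With all counts divided by 3 and rounded, which leaves fewer counts and bins, enhancer bins called numbered 10 at 24 h, 7 at 96 h and 17 in CTCF-depleted cells, and CBS bins 0 at 24 h and 6 at 96 h. With each pair counted once, 24 enhancer bins were called at 96 h against 40. CBS bins called at 96 h numbered 26 with bins of 5 kb, 10 with bins of 20 kb and 26 with distant beyond 5 kb, against 16. E-P-C at 24 h had too few counts, and some settings left the other triples too few. No paired analysis was possible because each file pools the 3 replicates of its group, and leaving out a replicate was not possible for the same reason; replicate spread is unknown here.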
